A study of Mus musculus with 15 samples.

Results

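The genes described are the metallothioneins Mt1 and Mt2 and the zinc or manganese transporters Slc39a14, Slc39a8, Slc39a4, Slc30a1 and Slc30a10. They were taken by symbol, with every probe annotated to them, and they are 7 of the 17793 genes and 13 of the 45281 probes measured. Mt1, Mt2 and Slc30a1 had 1 probe each, Slc39a14, Slc39a8 and Slc39a4 had 2 each, and Slc30a10 had 4.

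Levels came from Illumina mouse whole-genome BeadChips, 1 array per sample, on total RNA taken after 52 weeks of feeding. All mice were B6/129 (129S1/SvImJ;C57Bl/6J), and per the study's methods they were males and young adults when feeding began. The CD NW livers came from 5 mice on chow diet and normal water (1L, 1R, 2L, 2N and 3N). The WD SW livers came from 5 mice on a high-fat Western diet with a fructose and glucose solution as drinking water (4N, 4R, 5N, 5R and 6L), and the WD SW tumors came from the same 5 mice. The WD SW liver was the tissue around the tumors, so the diet and the presence of a tumor cannot be told apart in the comparison of WD SW liver with CD NW liver. There was no tumor of a mouse on chow.

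Metallothioneins are small cysteine-rich proteins that bind zinc and copper, and the liver makes them in large amounts. In mice their transcription rises with zinc through the transcription factor MTF1, which binds metal response elements, and also with glucocorticoids and interleukin 6. ZIP proteins (the Slc39a family) carry zinc, and some of them manganese and iron, into the cytosol, and ZnT proteins (the Slc30a family) carry metal out of it. Hepatocytes take up manganese from blood and pass the excess into bile, a route in which Slc39a14, Slc39a8 and Slc30a10 have known roles.

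The promoters of Mt1, Mt2 and the zinc exporter gene Slc30a1, 3 genes known as targets of MTF1 in mice, are shown for their metal response elements, with that of Slc30a10, the member that differed most from CD NW liver, beside them. Each is the RefSeq sequence of GRCm38.p6 from 250 bases before to 50 bases after a transcript start, 5′ to 3′ on the plus strand, and capitals mark the letters TGCACNC or TGCGCNC on either strand.
Mt1, chr8:94178839-94179138: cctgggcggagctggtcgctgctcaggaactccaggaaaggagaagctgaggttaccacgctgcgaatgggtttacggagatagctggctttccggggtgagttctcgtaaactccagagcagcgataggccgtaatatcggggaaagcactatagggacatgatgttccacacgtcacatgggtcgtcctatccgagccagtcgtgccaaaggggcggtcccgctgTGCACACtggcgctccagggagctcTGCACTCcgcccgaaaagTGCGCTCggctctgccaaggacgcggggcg
Mt2, chr8:94172368-94172667: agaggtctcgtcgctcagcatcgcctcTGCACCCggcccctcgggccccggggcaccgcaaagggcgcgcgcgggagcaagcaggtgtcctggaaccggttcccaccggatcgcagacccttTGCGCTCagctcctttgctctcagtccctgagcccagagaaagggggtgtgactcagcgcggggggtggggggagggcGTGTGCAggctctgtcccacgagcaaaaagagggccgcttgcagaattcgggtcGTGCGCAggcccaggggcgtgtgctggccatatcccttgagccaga
Slc30a1, chr1:191906531-191906830: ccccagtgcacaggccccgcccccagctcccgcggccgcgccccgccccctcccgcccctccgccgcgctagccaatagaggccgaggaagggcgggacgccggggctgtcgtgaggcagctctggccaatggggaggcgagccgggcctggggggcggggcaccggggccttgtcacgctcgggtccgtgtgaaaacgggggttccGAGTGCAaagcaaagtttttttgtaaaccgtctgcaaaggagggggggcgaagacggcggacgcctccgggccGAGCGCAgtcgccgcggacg
Slc30a10, chr1:185454598-185454897: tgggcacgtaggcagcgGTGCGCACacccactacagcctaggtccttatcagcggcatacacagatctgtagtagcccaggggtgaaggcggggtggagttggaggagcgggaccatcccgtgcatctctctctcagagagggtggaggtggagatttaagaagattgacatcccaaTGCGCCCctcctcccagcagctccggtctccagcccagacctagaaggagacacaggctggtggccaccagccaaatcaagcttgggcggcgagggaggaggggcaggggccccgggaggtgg

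The Mt2 window held these letters at 4 places, and 0.295% of all 32851 windows of this length held 4 or more. The Mt1 window held them at 3 places, all within 27 bases of the transcript start used for the window, and 1.31% of windows held 3 or more. The transcript starts used for Mt1 and Slc30a1 lie inside the locus spans given below, not at their first bases. The windows of Slc30a1 and Slc30a10 held them at 2 places each, and 6.14% of windows held 2 or more. In Slc30a10, 1 of the places matched on both strands with the matches overlapping. The antioxidant response letters TGACNNNGC occurred once in the windows of Mt2 and Slc30a1 and not in those of Mt1 and Slc30a10, and 12.4% of all windows held them on either strand. The STAT letters TTCNNNGAA, searched on both strands, were in none of the 6 windows of the members and in 8.3% of all windows. A match of letters is a description of the window, not a site of binding. Slc39a8 had 2 windows, with the metal response letters once in 1 of them, and Slc39a14 and Slc39a4 had no entry.

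The loci lie apart except for the metallothioneins, which are neighbours. In GRCm38.p6, Mt2 spans chr8:94172618-94173567 and Mt1 spans chr8:94178883-94180327 on the same strand. Slc30a1 spans chr1:191906697-191913248 and Slc30a10 spans chr1:185454848-185468762. Slc39a14 spans chr14:70303467-70351452, Slc39a8 spans chr3:135816882-135888572 and Slc39a4 spans chr15:76612383-76618506.

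A log2 level is the background-corrected and quantile-normalised signal of a probe. It orders arrays within a probe and does not compare genes, since probes differ in brightness. Between 12278 and 15814 probes per array were above background, meaning that under 1% of probes for odorant, vomeronasal and trace amine receptors, which stood in for negative controls, were as bright. All 9 hepatocyte markers were above background on all arrays. The log2 of their summed signal was 17.2 to 17.5 in CD NW liver, 16.99 to 17.36 in WD SW liver and 16.9 to 17.17 in tumors. The WD SW liver of mouse 5R stood apart: on a scale where 0 is the mean of the other WD SW livers and 1 the mean of the other tumors, it lay at 0.55 over genes higher and at 0.331 over genes lower in tumors, against -0.287 to 0.137 and -0.102 to 0.059 for the other livers. In whole tissue, fewer cells of a type and less RNA per cell cannot be told apart.

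Of the 7 genes, 6 passed the filter on dim probes and were tested in each comparison, and Slc39a8 did not. In WD SW liver against CD NW liver, 1 of the 6 changed at an adjusted p under 0.05 (Slc30a10, lower). Of all 8429 genes tested 9.78% changed, and 3.7% were lower. In tumor against WD SW liver none of the 6 passed with limma, where 4.01% of 8674 genes did. Mt1 and Mt2 had an unadjusted p under 0.05 there, as 1670 of the 8674 genes did. Mt2 passed when the mouse was a term of the fit, as 907 genes did. In tumor against CD NW liver 3 of the 6 changed, with Mt2 and Slc30a10 lower and Slc39a4 higher, and 25.1% of 8352 genes changed (12.3% higher and 12.8% lower). The same 3 genes had groups that did not overlap, as 17.6% of all genes tested did. No member had groups that did not overlap in the other 2 comparisons, where 10.1% of genes did so between the livers and 5.67% between tumor and WD SW liver. The median log2 difference of the 6 genes was 0.17, -0.85 and -0.79 in the 3 comparisons, and that of all genes tested was -0.049, 0.002 and -0.041. These comparisons share groups of samples, so their values are given side by side and not counted as separate support. The adjusted p-values are limma's with Benjamini-Hochberg adjustment over all genes tested, or over all probes for the further probes of a gene. With 5 mice per group they weigh a difference against the spread between these mice.

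**Figure D1:**
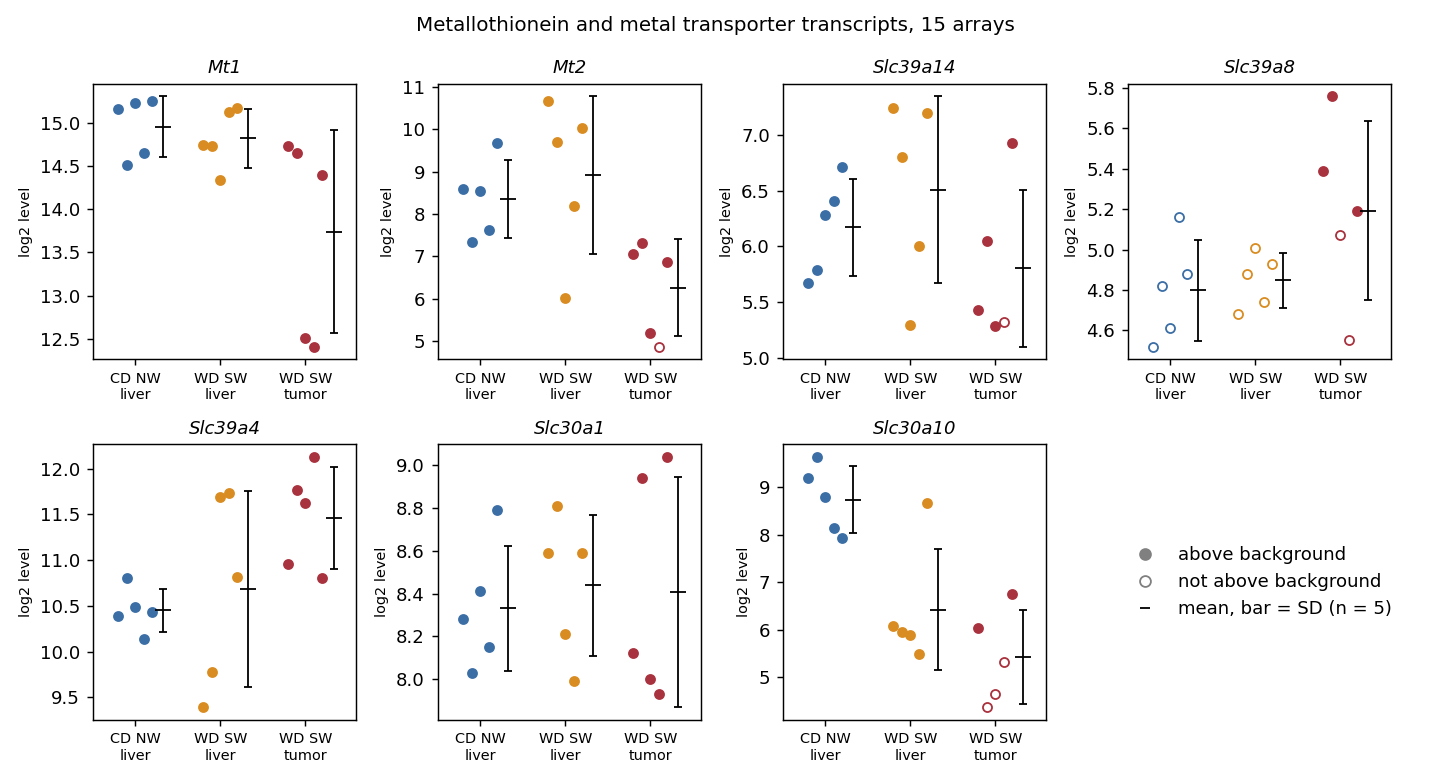
Log2 level (vertical axis) of the brightest probe of each of the 7 genes on each of the 15 arrays, by group, with the group mean and its standard deviation. Slc30a10 is at 7.94 to 9.64 in CD NW liver and at 4.37 to 6.75 in tumors, Slc39a4 is higher in every tumor than in any CD NW liver, and open points are arrays where the probe was not above background.

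Among the metallothioneins, Mt2 was lower in tumors than in control liver and lower in each tumor than in its own liver, while the WD SW livers held both the highest and the lowest Mt2 level of all livers. Mt1 differed in the same direction in tumors without passing the test. Neither gene passed in WD SW liver against CD NW liver.

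The log2 level of Mt2, measured with 1 probe, was 8.59, 7.35, 8.53, 7.62 and 9.67 in the CD NW livers of mice 1L, 1R, 2L, 2N and 3N. It was 10.66, 9.69, 6.02, 8.19 and 10.03 in the WD SW livers of mice 4N, 4R, 5N, 5R and 6L. In the tumors of the same mice it was 7.07, 7.31, 5.20, 4.88 and 6.88, and the tumor of mouse 5R was not above background. All 5 tumors were below all 5 CD NW livers, though the highest tumor (7.31) only just below the lowest control (7.35). The WD SW livers spread widely, with 3 above the highest control and the liver of mouse 5N below every control and below 3 of the tumors. The span from the lowest to the highest WD SW liver was 24.8-fold.

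Against CD NW liver, the tumor difference of Mt2 was -2.08 on the log2 scale (standard error 0.54, 95% confidence interval -3.26 to -0.90, adjusted p = 0.0158), a 4.24-fold lower level. Without background correction it was -1.25, and the call was lost when all 15 arrays were fitted together (adjusted p = 0.055). The WD SW livers differed from CD NW livers by 0.56 (standard error 0.78, 95% confidence interval -1.14 to 2.27, adjusted p = 0.69), an interval that holds both a fall and a rise of over 2-fold.

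Within mice, Mt2 was lower in the tumor than in its own liver in 5 of 5 mice. The differences on the log2 scale were -3.59, -2.38, -0.82, -3.31 and -3.15 in mice 4N, 4R, 5N, 5R and 6L, the smallest being that of the mouse with the lowest liver level. With the groups taken as unpaired, the mean difference was -2.65 (standard error 0.82, adjusted p = 0.0985). With the mouse as a block, the standard error was 0.37 and the adjusted p 0.00479. The blocked difference passed with each mouse left out in turn, between -2.41 and -3.1, the adjusted p ranging from 0.00269 to 0.0196. Without the outlying mouse 5R it was -2.48 (adjusted p = 0.0109). With the liver of mouse 5N left out, the unpaired difference also passed, at -3.37 (adjusted p = 0.0223).

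The log2 level of Mt1 was 15.16, 14.51, 15.23, 14.65 and 15.25 in CD NW liver and 14.75, 14.73, 14.34, 15.13 and 15.18 in WD SW liver, in the order of mice given above. In tumors it was 14.73, 14.65, 12.51, 12.41 and 14.40. The tumors of mice 5N and 5R were well below every liver, and the tumors of mice 4N, 4R and 6L lay within the range of the livers. The Mt1 probe was among the brightest on each array, ranking 3 to 52 of all probes in CD NW liver, 6 to 66 in WD SW liver and 37 to 460 in tumors. Near the top of an array's range the signal can flatten, and its part in the Mt1 values was not tested.

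The tumor difference of Mt1 was -1.22 against CD NW liver (standard error 0.45, adjusted p = 0.0682). Against WD SW liver it was -1.09 (standard error 0.46, adjusted p = 0.226, and 0.1 with the mouse as a block). By mouse, tumor minus liver was -0.01, -0.08, -1.83, -2.72 and -0.78 in mice 4N, 4R, 5N, 5R and 6L. The comparison with CD NW liver did not pass in 15 of 20 alternatives, over which the difference ranged from -1.51 to -0.88 and the adjusted p from 0.0147 to 0.149. It passed with median scaling (adjusted p = 0.0489), with 1 fit of all arrays (0.0408), with array weights (0.0147), and without the tumor of mouse 4N (0.0391) or 4R (0.0488). In WD SW liver against CD NW liver Mt1 differed by -0.13 (95% confidence interval -0.56 to 0.30, adjusted p = 0.716). Over the 15 arrays the levels of Mt1 and Mt2 had a Pearson r of 0.782, and 0.651 after the group means were taken off. This is a description, since the arrays share mice and groups.

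**Figure D2:**
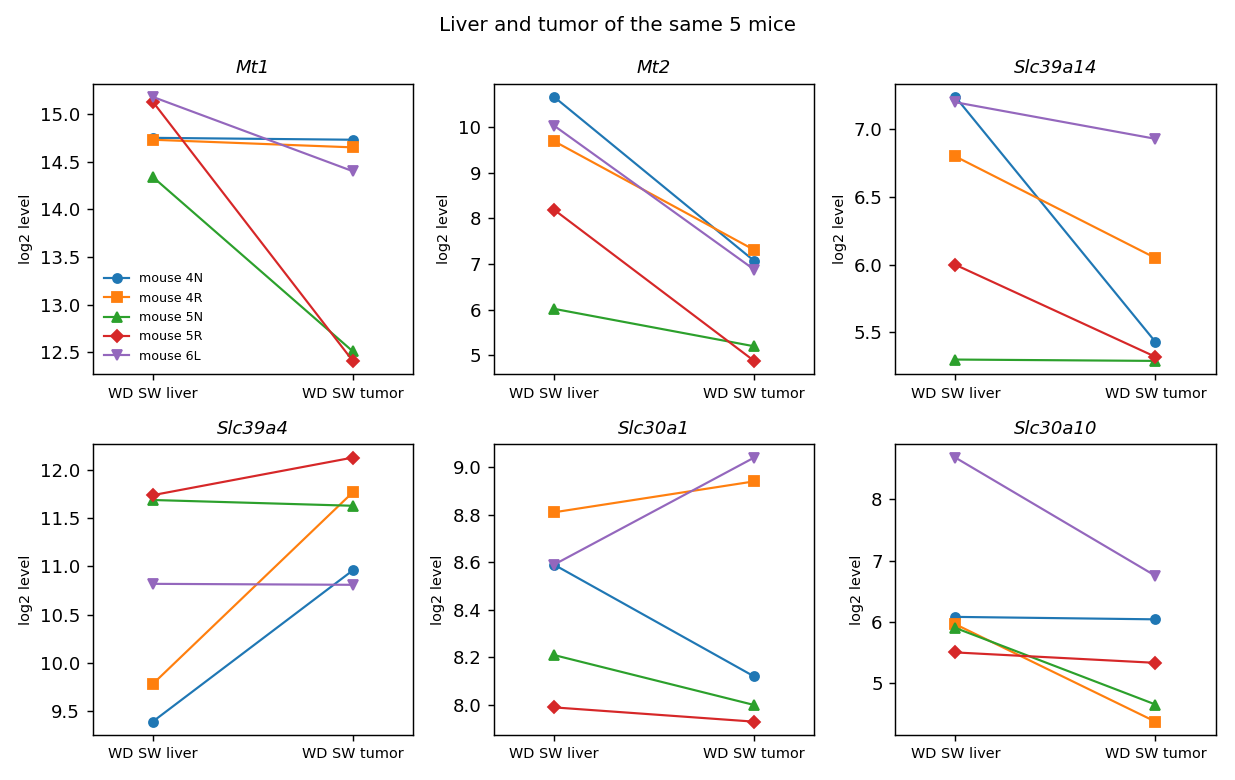
Log2 level (vertical axis) in the WD SW liver and in the tumor of each of the 5 mice, joined by a line per mouse, for the 6 tested genes. The Mt2 lines run down in 5 of 5 mice, the Slc30a10 line is nearly flat in mouse 4N and its tumor ends in mice 4R, 5N and 5R are at background, and the Slc39a4 lines run up in mice 4N, 4R and 5R and are nearly flat in mice 5N and 6L.

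Of the exporters, Slc30a10 was lower in WD SW liver and lower still by mean level in tumors, while Slc30a1 differed by little between groups. Slc30a10 encodes a transporter that carries manganese out of hepatocytes, and in humans its loss leads to manganese build-up in liver and brain. Slc30a1 encodes the zinc exporter of the plasma membrane.

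The log2 level of Slc30a10 was 9.19, 9.64, 8.79, 8.14 and 7.94 in CD NW liver. In the WD SW livers of mice 4N, 4R, 5N, 5R and 6L it was 6.08, 5.96, 5.90, 5.50 and 8.68, and in their tumors 6.04, 4.37, 4.65, 5.33 and 6.75. The WD SW livers of 4 mice were below every control, and that of mouse 6L was within the control range. In tumors the probe was above background in mice 4N and 6L only. The difference of WD SW liver from CD NW liver was -2.32 (standard error 0.56, 95% confidence interval -3.53 to -1.10, adjusted p = 0.024), a 4.98-fold lower level. With the 6L liver left out it was -2.88 (adjusted p = 0.00312). The call was lost, at differences between -2.09 and -2.3 and adjusted p of 0.057 to 0.0639, when any 1 of the arrays of CD NW mice 1L, 1R and 2L or of WD SW livers 4R and 5N was left out. With the outlying 5R liver left out it was -2.09 (adjusted p = 0.0442), and without background correction -1.45 (adjusted p = 0.0353).

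Between tumors and CD NW livers Slc30a10 differed by -3.31 (standard error 0.45, 95% confidence interval -4.30 to -2.32, adjusted p = 2.96e-04), with no overlap of the groups. Since 3 of the 5 tumors were not above background, the size of this difference rests on the background level, and without background correction it was -1.9 (adjusted p = 2.89e-04). Against WD SW liver it was -1.0 (95% confidence interval -2.33 to 0.34, adjusted p = 0.417, and 0.0693 with the mouse as a block). Without the liver of mouse 6L it was -0.43 (adjusted p = 0.666), and without background correction -0.46. Of 27 alternatives 1 passed, the mouse as a block without both arrays of mouse 4N (-1.23, adjusted p = 0.0378). In the 2 mice whose tumor was above background, tumor minus liver was -0.04 in mouse 4N and -1.93 in mouse 6L. The tumors of mice 4R, 5N and 5R, not above background, had normalised levels below those of their livers.

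The 2 other Slc30a10 probes measured above background had the same order of groups by mean. The second, ILMN_2445236, had mean log2 levels of 6.81, 5.39 and 4.84 in CD NW liver, WD SW liver and tumor and was above background on 5, 1 and 1 arrays. The WD SW liver above background was again that of mouse 6L, at 7.22. Its tumor difference from CD NW liver was -1.97 (standard error 0.30, adjusted p = 5.94e-04), and its difference between the livers, -1.42, did not pass (adjusted p = 0.0861). The third, ILMN_1243252, had means of 6.35, 4.98 and 4.51, was above background in 4 CD NW livers, 1 WD SW liver and no tumor, and was at least 2.06-fold lower in tumor than in CD NW liver. Its difference between the livers was -1.37 (adjusted p = 0.0761). The bound on the fold sets the mean of the bright group against the lowest signal that was above background. The fourth was above background on no array.

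**Figure D3:**
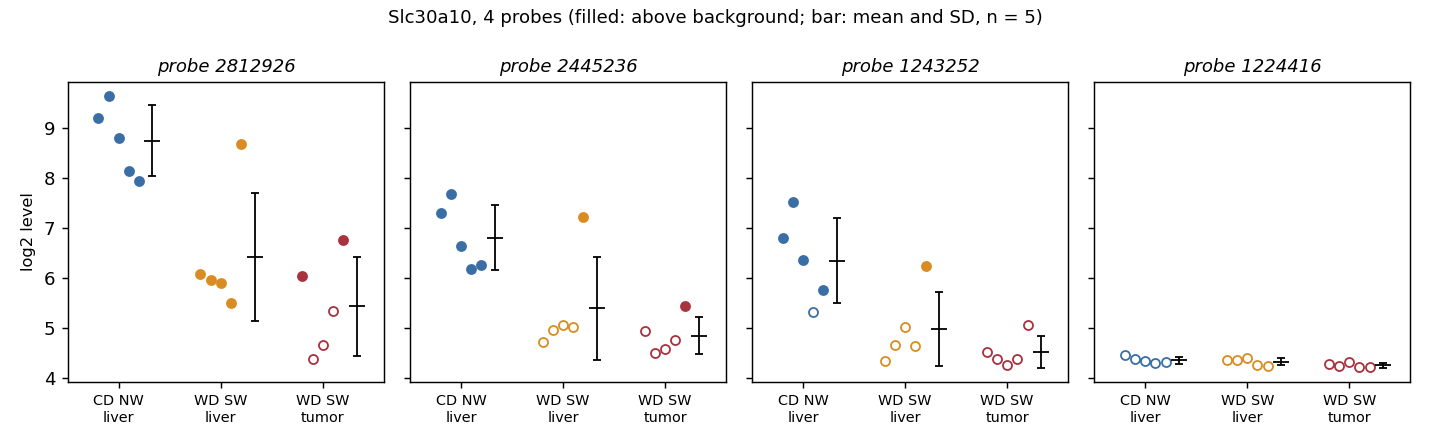
Log2 level (vertical axis) of the 4 Slc30a10 probes on each of the 15 arrays, by group, with the mean and standard deviation. Filled points are above background. The WD SW liver of mouse 6L lies at 8.68 and 7.22 on the first and the second probe, apart from the other WD SW livers.

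Slc30a1 was above background on all arrays. Its log2 level was 8.28, 8.03, 8.41, 8.15 and 8.79 in CD NW liver, 8.59, 8.81, 8.21, 7.99 and 8.59 in WD SW liver, and 8.12, 8.94, 8.0, 7.93 and 9.04 in tumors. The groups overlapped in full. The differences were 0.10 between the livers (95% confidence interval -0.30 to 0.51, adjusted p = 0.762), -0.03 for tumor against WD SW liver (-0.60 to 0.53, adjusted p = 0.971) and 0.07 for tumor against CD NW liver (-0.46 to 0.61, adjusted p = 0.854). None of these intervals reaches a 2-fold difference, and the sign of the last 2 changed under other settings.

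Of the importers, Slc39a4 was higher in tumors than in control liver, Slc39a14 passed no test, and Slc39a8 was near background. Slc39a4 encodes the zinc importer of the intestinal epithelium, whose loss in humans causes the zinc deficiency disease acrodermatitis enteropathica. The log2 level of Slc39a4 was 10.39, 10.80, 10.49, 10.14 and 10.43 in CD NW liver and 9.39, 9.78, 11.69, 11.74 and 10.82 in the WD SW livers of mice 4N, 4R, 5N, 5R and 6L. In tumors it was 10.96, 11.77, 11.63, 12.13 and 10.81. The controls lay close together, every tumor was above them, though the lowest (10.81) only just above the highest control (10.80), and the WD SW livers fell on both sides of the control range.

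The standard deviation of Slc39a4 was 0.24 in CD NW liver, 1.08 in WD SW liver and 0.56 in tumor (n = 5 each). Tumors differed from CD NW livers by 1.01 (standard error 0.24, 95% confidence interval 0.49 to 1.53, adjusted p = 0.00903), a 2.01-fold higher level. With 1 fit of all 15 arrays, which takes in the spread of the WD SW livers, the adjusted p was 0.076. Against WD SW liver the tumor difference was 0.78 (95% confidence interval -0.23 to 1.78, adjusted p = 0.397, and 0.148 with the mouse as a block). It was 1.57, 1.99, -0.06, 0.39 and -0.01 in mice 4N, 4R, 5N, 5R and 6L. The WD SW livers differed from CD NW livers by 0.24 (95% confidence interval -0.68 to 1.15, adjusted p = 0.76). The second Slc39a4 probe was above background on no array.

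Among the WD SW livers, mice 4N and 4R had Mt2 above and Slc39a4 below all controls, and mouse 5N had the lowest Mt2 and a high Slc39a4. Mouse 6L was above all controls in Mt2, and in Slc39a4 only just (10.82, the highest control being 10.8). Mouse 5R had Mt2 within the control range (8.19) and the highest Slc39a4 of the livers (11.74). Over the 15 arrays the Pearson r of Mt2 and Slc39a4 was -0.775, and -0.705 with the group means taken off. It is given as a description of 15 arrays from 10 mice.

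Slc39a14 encodes an importer of zinc, manganese and iron that interleukin 6 raises in mouse hepatocytes. Its log2 level was 5.67, 5.79, 6.28, 6.41 and 6.71 in CD NW liver, 7.24, 6.80, 5.30, 6.00 and 7.20 in WD SW liver and 5.43, 6.05, 5.29, 5.32 and 6.93 in tumors. These levels are dim, and the tumor of mouse 5R was not above background. The WD SW livers of mice 4N, 4R and 6L were above all controls and that of mouse 5N below them. It differed by 0.34 between the livers (95% confidence interval -0.47 to 1.15, adjusted p = 0.609), by -0.70 for tumor against WD SW liver (adjusted p = 0.408, and 0.118 with the mouse as a block) and by -0.37 for tumor against CD NW liver (adjusted p = 0.444). Over the 15 arrays its level had a Pearson r of 0.803 with that of Mt2, and of 0.793 with group means taken off. The second Slc39a14 probe was above background in 2, 4 and 1 of 5 arrays of the 3 groups, with the tumor of mouse 6L and the WD SW livers of mice 6L and 4R highest.

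Slc39a8 encodes a relative of Slc39a14 that in mice takes manganese back from bile. It was above background in 3 tumors, those of mice 4N, 4R and 6L, and in none of the 10 livers. Its log2 level was 4.52, 4.82, 4.61, 5.16 and 4.88 in CD NW liver, 4.68, 4.88, 5.01, 4.74 and 4.93 in WD SW liver and 5.39, 5.76, 5.07, 4.55 and 5.19 in tumors. The groups overlapped at this dim level, and no test or fold was given. Its other probe was above background on no array.

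**Figure D4:**
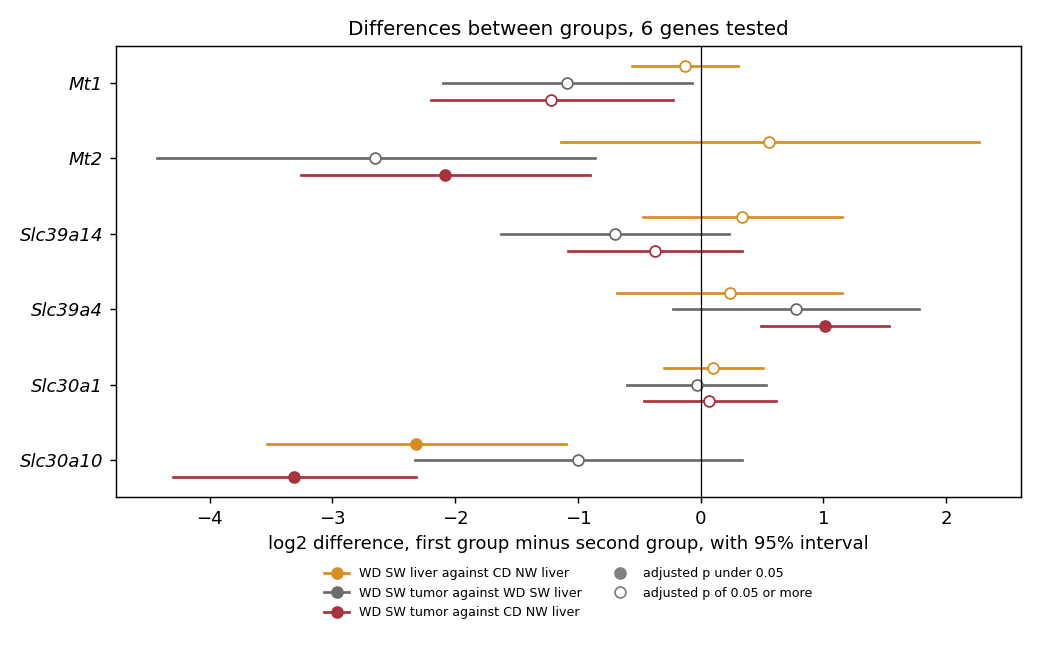
Log2 difference (horizontal axis) of the 6 tested genes in the 3 comparisons, with 95% confidence intervals and a line at 0. Filled points passed at an adjusted p under 0.05. The intervals of Slc30a10 lie farthest from 0 in the 2 comparisons with CD NW liver, at -3.31 for tumor and -2.32 for WD SW liver against CD NW liver.

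The other genes of both transporter families were read from the same fits. Of 11 other ZIP genes 6 were tested, and of 8 other ZnT genes 5 were tested. None changed in any of the 3 comparisons, in which 9.78%, 4.01% and 25.1% of all genes tested did. The median differences were 0.14, -0.08 and 0.18 for the ZIP genes and 0.02, -0.12 and -0.02 for the ZnT genes, in the order given above. Slc39a7, a zinc carrier gene of the secretory pathway, was nearest to the threshold, at -0.37 in tumor against CD NW liver (adjusted p = 0.0536) with no overlap of the groups. Mtf1, the zinc-sensing transcription factor gene, differed by -0.17, 0.04 and -0.13 (adjusted p = 0.494, 0.933 and 0.6). Of the other metallothionein genes, Mt3 was above background on no array, and Mt4, above background on 6 of 15 arrays, was tested only in tumor against WD SW liver, where it differed by 0.16 (adjusted p = 0.866). Slc39a5, a zinc importer gene that was named after its values were seen, was above background in 4 of 5 tumors and in none of 10 livers, with log2 levels of 5.0 to 6.66 in tumors, 4.42 to 4.90 in WD SW liver and 4.27 to 4.63 in CD NW liver. It was at least 1.44-fold higher in tumor than in WD SW liver and at least 1.24-fold higher than in CD NW liver, and it was too dim for the test.

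Of 6 tested carriers of manganese and iron, 1 rose in WD SW liver against CD NW liver, none changed in tumor against WD SW liver, and 2 rose and 2 fell in tumor against CD NW liver. The shares of all genes tested that changed were 9.78%, 4.01% and 25.1% in these comparisons, in the same order. The rise in liver was that of Tfrc, the transferrin receptor gene (1.22, adjusted p = 0.00758). In tumor against CD NW liver Slc11a2, a carrier of iron and manganese, rose by 1.37 (adjusted p = 0.0161) and Tfrc by 0.85 (adjusted p = 0.0151). Tfr2, a receptor through which hepatocytes sense transferrin, fell by 0.99 (adjusted p = 0.00342), and Atp2c1, the manganese and calcium pump of the Golgi, fell by 0.83 (adjusted p = 0.0378). Of 4 tested enzymes that use manganese, Arg1, the manganese-dependent arginase of the urea cycle, fell by 4.01 in tumor against WD SW liver (standard error 0.72, adjusted p = 0.0118) and fell by 4.09 against CD NW liver (adjusted p = 0.00128). Pck1, the gluconeogenic enzyme gene, fell by 2.02 against CD NW liver (adjusted p = 0.0422).

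Genes of zinc enzymes moved both ways. Of 11 tested in tumor against CD NW liver, 3 rose and 2 fell, where 25.1% of all genes tested changed. Adh1, an alcohol dehydrogenase gene, rose by 0.75 (adjusted p = 0.00211) and Adh7 by 0.70 (adjusted p = 0.00615), and the carbonic anhydrase gene Car1 fell by 1.15 (adjusted p = 0.00209). Car1 was above background in 1 of 5 tumors, so the size of its fall rests on the background level. The other that fell was Car3 (-1.91, adjusted p = 0.0136), named after its values were seen. Car2, another carbonic anhydrase, rose in tumor against WD SW liver by 2.0 (adjusted p = 0.0105) and was at least 5.06-fold higher than in CD NW liver, where it was above background on no array. In WD SW liver against CD NW liver 1 of 10 rose, Adh7 (0.55, adjusted p = 0.0287), a share close to the 9.78% of all genes tested that changed there. Of 8 copper-handling genes, 1 rose and 1 fell in tumor against CD NW liver, a share close to that of all genes tested (25.1%). Slc31a1, the copper importer gene, fell there by 0.63 (adjusted p = 0.00353). No tested gene of this list changed in WD SW liver against CD NW liver or in tumor against WD SW liver, where 9.78% and 4.01% of all genes tested did.

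Genes of the signals known to raise metallothioneins were read from the same fits. Of all genes tested, 9.78% changed in WD SW liver against CD NW liver. The shares were 4.01% in tumor against WD SW liver and 25.1% in tumor against CD NW liver. Of 22 genes of interleukin 6 signalling and the acute phase, 1 rose in WD SW liver (Lcn2, 2.88, adjusted p = 0.0366), 1 fell in tumor against WD SW liver (Hamp, which encodes hepcidin and fell by 2.39, adjusted p = 0.00475) and 5 fell in tumor against CD NW liver. Those 5 were Hamp (fell by 2.66, adjusted p = 1.47e-04), Itih4, Il6st, Saa4 and, named after its values were seen, Stat3. Of 10 glucocorticoid-responsive genes, 2 fell in tumor against CD NW liver, namely Hsd11b1, whose product makes active glucocorticoid (fell by 1.89, adjusted p = 2.2e-04), and Tat (fell by 1.33, adjusted p = 0.0247), and none changed in the other 2 comparisons. Of 8 targets of NRF2, 1 rose in WD SW liver (Hmox1, 2.13, adjusted p = 0.00251), none changed against WD SW liver and 7 rose in tumor against CD NW liver, among them Srxn1 (2.02), Gclm (0.85), Nqo1 (1.69) and Gsta1 (3.28). Each list was chosen by known function with results of these data already seen.

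Markers of other cell types also differed between the groups. The log2 of the summed signal of 10 macrophage markers was 10.13 to 10.94 in CD NW liver, 12.05 to 14.35 in WD SW liver and 10.87 to 12.53 in tumors. Cd5l was above background on no array, and in each such sum the brightest genes weigh most. Neutrophil markers stood at 7.09 to 7.98, 8.87 to 11.39 and 7.42 to 10.89, with Cxcr2 above background on no array. Endothelial markers stood at 11.23 to 12.25, 9.83 to 12.29 and 8.78 to 11.07, and stellate cell and fibroblast markers at 11.32 to 12.55, 10.25 to 13.11 and 8.42 to 11.56. The stellate cell and fibroblast sum was mostly Dcn and does not stand for its list. None of the 4 genes of that list tested between the livers changed. Col3a1, named after its values were seen, was too dim for that test. It was above background in 3 WD SW livers and no CD NW liver, at least 1.34-fold higher by mean, with the groups overlapping. Bile duct markers stood at 8.99 to 10.5, 7.71 to 11.21 and 6.99 to 8.98, with Epcam above background on no array. That sum was mostly Sox9, whose own log2 level was 8.76 to 10.41, 7.22 to 11.17 and 5.58 to 8.79. Of 5 endothelial genes tested in tumor against CD NW liver, Clec4g fell by 2.41 (adjusted p = 0.01) and Lyve1 rose by 1.34 (adjusted p = 0.0231). The other 3 did not pass, so the endothelial sum does not stand for its list as a whole. Of the 9 hepatocyte markers, 4 were lower in tumor than in CD NW liver, where 12.8% of all genes tested were lower. None of the 9 changed in the other 2 comparisons. The erythroid sum held the 2 of 4 listed genes that had a probe. The pancreatic acinar sum was mostly Amy2a5, and 5 of its 8 genes were above background on no array. Both sums overlapped between all groups. Alas2, the heme synthesis enzyme of red cell precursors, still fell in WD SW liver (-1.24, adjusted p = 0.00336) and in tumor (-0.92, adjusted p = 0.0302) against CD NW liver. The part of these shifts in the differences of Mt2, Slc30a10 and Slc39a4 was not tested.

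Over the 15 arrays, the genes whose levels ran most like each member were taken among 8989 genes by Pearson r. Slc30a10 ran closest to Pnkd (0.933), Zfp513 (0.921) and Als2cl (0.908), and Mt2 to Cyp3a13 (0.922), Ttpa (0.862) and Sdc4 (0.856). Slc39a4 ran closest to Gstm1 (0.912), Them6 (0.868) and Gpx4 (0.865), Slc39a14 to Saa4 (0.896), St3gal4 (0.848) and Grn (0.846), Mt1 to Wfdc21 (0.869), Nnmt (0.866) and Itgb1bp1 (0.858), and Slc30a1 to Nrbf2 (0.874), Smad1 (0.864) and Zdhhc13 (0.833). With group means taken off, Slc39a14 and Saa4, a constitutive serum amyloid gene, had an r of 0.905, and Slc39a4 and Gpx4, a lipid peroxidase gene, 0.946. These values rank genes on arrays that share mice and groups.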

How the data were processed

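Total RNA of 15 samples, purified from RNAlater-treated tissue with a column kit per the labels, was measured on 1 array each. The authors deposited probe signal intensities on a linear scale, before normalization between arrays, and processed intensities whose method the sources used here do not name. Neither file holds detection p-values or control probes, and no BeadChip is named for any array, so chip effects could not be examined.

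The deposited intensities were background corrected and quantile normalised across the 15 arrays by the neqc function (limma 3.58.1, R 4.3.3, offset 16, robust estimates), in which 1526 receptor probes stood in for negative controls, and taken to log2. The authors' processed intensities, taken to log2, served as an alternative. A probe was kept where its detection p was under 0.01 on 5 or more of the 10 arrays in a comparison, a gene was its brightest kept probe, and groups were compared with lmFit and eBayes with a trend. Background subtraction and the offset set the size of differences of dim probes. The mouse was an alternative block: across genes, deviations of a tumor and its own liver from their group means had r of 0.189 to 0.52, above those of any other liver (highest 0.126), and the labels give both to 1 mouse. The fit and its adjustment were tried on simulated log2 values. That trial did not cover background correction, normalization, the filter, the choice of probe or the block.

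Symbols came from the array's probe table by gene identifier, through RefSeq genes of GRCm38.p6 (34807 of 34885 probes with 1 symbol, 18 with several genes and 10378 with none). Where the probes lie in the transcripts was not used. Of the 7 members, 5 matched 6 promoter windows. Named genes are all members, up to 4 genes per list and comparison by smallest adjusted p, the 3 genes most like each member and markers, with exceptions marked in the text. The members and lists were chosen with earlier results of these data known. Figures were drawn with matplotlib 3.10.9 in Python 3.11.15.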

Additional observations from a re-analysis of the deposited data

Results flagged for a closer look

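In 27 sets of 5 arrays (a probe of a member in a group), the highest or lowest array was compared with its nearest neighbour, and 2 sets held an array whose gap to the others exceeded 0.71 of the range. Chance gives about 1 such set in 20. Both were the WD SW liver of mouse 6L on probes of Slc30a10: its log2 level was 8.68 on the first probe, the next being 6.08 (0.818 of the range), and 7.22 on the second, the next being 5.05 (0.868 of the range). The 2 probes measure the same RNA and are not separate observations.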

How the results depend on the processing

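Of 402 log2 differences of the members under other settings, 366 kept their direction and side of the threshold, and the cause was not tested where they did not. The counts of genes and members that changed are not among these 402 and are given next. With detection required on all 10 arrays, 499 of 6873 genes tested changed in WD SW liver against CD NW liver and 221 of 7005 in tumor against WD SW liver. Under that setting 3 members were tested in tumor against CD NW liver, and 1 of them (Slc39a4) changed. In tumor against WD SW liver, 681 genes and 1 member (Mt2) changed with 1 fit of all arrays, 552 genes with array weights, 907 genes and 1 member (Mt2) with the mouse as a block, and 179 genes without both arrays of mouse 6L. The block changed no other call of a member. Leaving out 1 array at a time gave 471 to 850 genes and 0 to 1 members in WD SW liver against CD NW liver, and 143 to 455 genes and 0 to 1 members in tumor against WD SW liver. Median scaling moved the share of higher calls from 62.1% to 81.3% in WD SW liver against CD NW liver and from 49.1% to 70.6% in tumor against CD NW liver, where it moved the median of all genes to 0.143.
Reversed values were small. Slc39a4 in WD SW liver against CD NW liver was -0.0031 with array weights and -0.03 to 0.56 with 1 array left out. Slc30a1 in tumor against WD SW liver was 0.06 with median scaling, -0.19 to 0.09 with 1 array left out, and 0.08 and 0.01 with the block and without mouse 4N or 5N. Slc30a1 in tumor against CD NW liver was -0.09 to 0.19 with 1 array left out. Leaving out both arrays of mouse 6L, and of each mouse with the block, was chosen after seeing the data. With 5 arrays per group, intervals are wide, and the probes of Slc39a8 and most tumor values of Slc30a10 were at background.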
